A study of Lupinus albus with 12 samples.

Results

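The 56 genes described here carry the protein names of the nitrate and ammonium uptake and assimilation pathway of white lupin (*Lupinus albus*), out of 23427 genes in the table of values. They were chosen by words in the UniProt protein name, and no measured value was used. The words took in 2 genes named high-affinity nitrate transporter, 26 proton-dependent oligopeptide transporters, 2 nitrate-transporting ATPases, 1 nitrate reductase, 1 ferredoxin-nitrite reductase, 4 ammonium transporters, 6 glutamine synthetases, 1 NADH-dependent glutamate synthase, 7 glutamate dehydrogenases and 4 asparagine synthetases. The 2 remaining genes, a folylpolyglutamate synthase (Lalb_Chr04g0250971) and an arginine biosynthesis protein ArgJ (Lalb_Chr06g0171031), were caught only because their names contain the word glutamate synthase as a part.

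Plants take up nitrate and ammonium through transporters in the plasma membrane of root cells. Nitrate is reduced to nitrite by nitrate reductase in the cytosol, and nitrite is reduced to ammonium by nitrite reductase in the plastid. Glutamine synthetase then binds ammonium to glutamate, which gives glutamine. Glutamate synthase passes nitrogen from glutamine on to an organic acid, which becomes glutamate. Asparagine synthetase moves nitrogen to asparagine, a major transport form of nitrogen in lupins, and glutamate dehydrogenase can release ammonium from glutamate again. These steps draw reducing power and carbon skeletons from sugars.

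Roots of wildtype plants of the cultivar Amiga were grown in Hoagland solution and were left without added sucrose (control, 0 min) or exposed to 10 mM sucrose for 10, 15 or 20 min, and root pieces of 5 to 6 cm that included the tip were harvested. The question was how the root transcriptome responds to sucrose as a signal within minutes. Each of the 4 groups had 3 libraries, 12 in all, made from polyadenylated RNA and read as cDNA on Oxford Nanopore flow cells. Every biological replication was pooled on a flow cell of its own, so the replicate number is also the flow cell, and the plants of a replication and the flow cell cannot be told apart. The labels describe 3 plants per replicate and the methods of the study 1 plant, so it is not known here whether a library stands for a single plant. Because whole root pieces were used, a change in the share of a cell type and a change in RNA per cell cannot be told apart.

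The values are whole numbers that were deposited under the name CPM, but they add up to between 184071 and 407780 per library, so the reads behind a value are unknown. The totals were 339599 to 407780 in flow cell 3 and 184071 to 356992 in flow cells 1 and 2, and the 56 genes together took 0.169 to 0.341% of the total. Between 32 and 45 of the 56 genes had a value above 0 in a library. In 27 of them no library reached a value of 5, and 49 passed the filter for testing (3 or more libraries with a value of 1 or more). Genes of green tissue and nodulins had higher summed values in flow cell 3 than in the other flow cells. The summed value of 71 photosystem genes was 1046 to 2327 there and 180 to 502 in flow cells 1 and 2, that of 4 genes for the small subunit of ribulose bisphosphate carboxylase 46 to 138 against 0 to 6, and that of 26 chlorophyll a-b binding genes 196 to 629 against 67 to 133. Per 10000 of the library total the photosystem genes (26.7 to 68.5 against 5.78 to 27.3) and the chlorophyll a-b binding genes (4.81 to 18.5 against 3.27 to 6.30) overlapped between flow cells, and the small subunit genes (1.13 to 4.06 against 0 to 0.231) did not. The 5 early nodulins summed to 233 to 3098 in flow cell 3 and 8 to 141 elsewhere (5.71 to 91.2 against 0.435 to 4.53 per 10000), and 11 other nodulins to 43 to 116 against 6 to 38 (1.097 to 2.845 against 0.326 to 1.46 per 10000). Of the root genes, 10 extensins summed to 506 to 1419 and 57 class III peroxidases to 1374 to 2350 over the 12 libraries, whereas the names leghemoglobin and Casparian strip membrane protein matched 0 genes.

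No gene of the pathway passed the thresholds of the study, a log2 fold change (log2 FC) of 1.5 or more in either direction with an unadjusted p-value of 0.05 or less, at any time of sucrose exposure. The log2 FC was taken from the mean of log2(value + 1) in each group, which understates changes of low genes, and the test was limma over all 19138 genes that passed the filter. The count was 0 of 49 genes after 10 min, where 0.648% of all genes passed, 0 of 49 after 15 min (0.564% of all genes) and 0 of 49 after 20 min (0.826% of all genes). It was also 0 of 49 when the 9 sucrose libraries were compared with the 3 controls (0.47% of all genes) and when 20 min was compared with 10 min (0.371% of all genes). At background rates this low, a list of 49 genes would hold few such calls or none, so the count of 0 does not set these genes apart. With the p-value alone, limma gave 1 gene of 49 after 10 min (2.38% of all genes), 1 after 15 min (1.96%), 2 after 20 min (3.76%), 3 in the pooled sucrose comparison (3.27%) and 0 between 20 and 10 min (1.96%). With the flow cell as a block these counts were 2 (3.81%), 2 (3.19%), 4 (6.00%), 3 (4.84%) and 3 (3.30%). No gene of the pathway reached a Benjamini-Hochberg adjusted p-value of 0.05 in these 5 comparisons, which 0.00523% of all genes did in each comparison with the control and 0.0% did between 20 and 10 min. Over the 49 genes the median log2 FC was 0.12, 0.09 and 0.39 for the successive exposures, beside 0.19, 0.06 and 0.26 over all genes tested. After scaling to the median total, the medians of the 49 genes were -0.05, 0.06 and 0.20, and those of all genes -0.01, 0.02 and 0.05. The comparisons with the control share the same 3 control libraries.

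Libraries of flow cell 3 differed from the others in several steps of the pathway, and this held in the control and at each time of sucrose exposure. The comparison of its 4 libraries with the 8 libraries of flow cells 1 and 2, with time point and flow cell as terms in limma, was added after the values had been seen, and its p-values treat 4 libraries of a single flow cell as replicates. Past the same thresholds, 8 of 49 genes (16.3%) differed, with 9.02% of all genes as background. The 8 include nitrate reductase and the glutamine synthetase Lalb_Chr17g0346051, which passed the filter through flow cell 3 alone. Of these, 6 were higher in flow cell 3 (7.32% of all genes) and 2 were lower (1.71% of all genes). The median log2 FC was 0.38 over the 49 genes and 0.12 over all genes. Among all called genes 81.1% were higher in flow cell 3, and after scaling to the median total 60.3% were, with a median over all genes of -0.15. That scaling left 5 of the 49 genes higher and 2 lower, beside 984 higher and 647 lower of all 19138 genes (8.52% in either direction). The higher totals and the higher values of green tissue genes and nodulins moved with flow cell 3 as well, and their part in these differences was not tested.

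**Figure D1:**
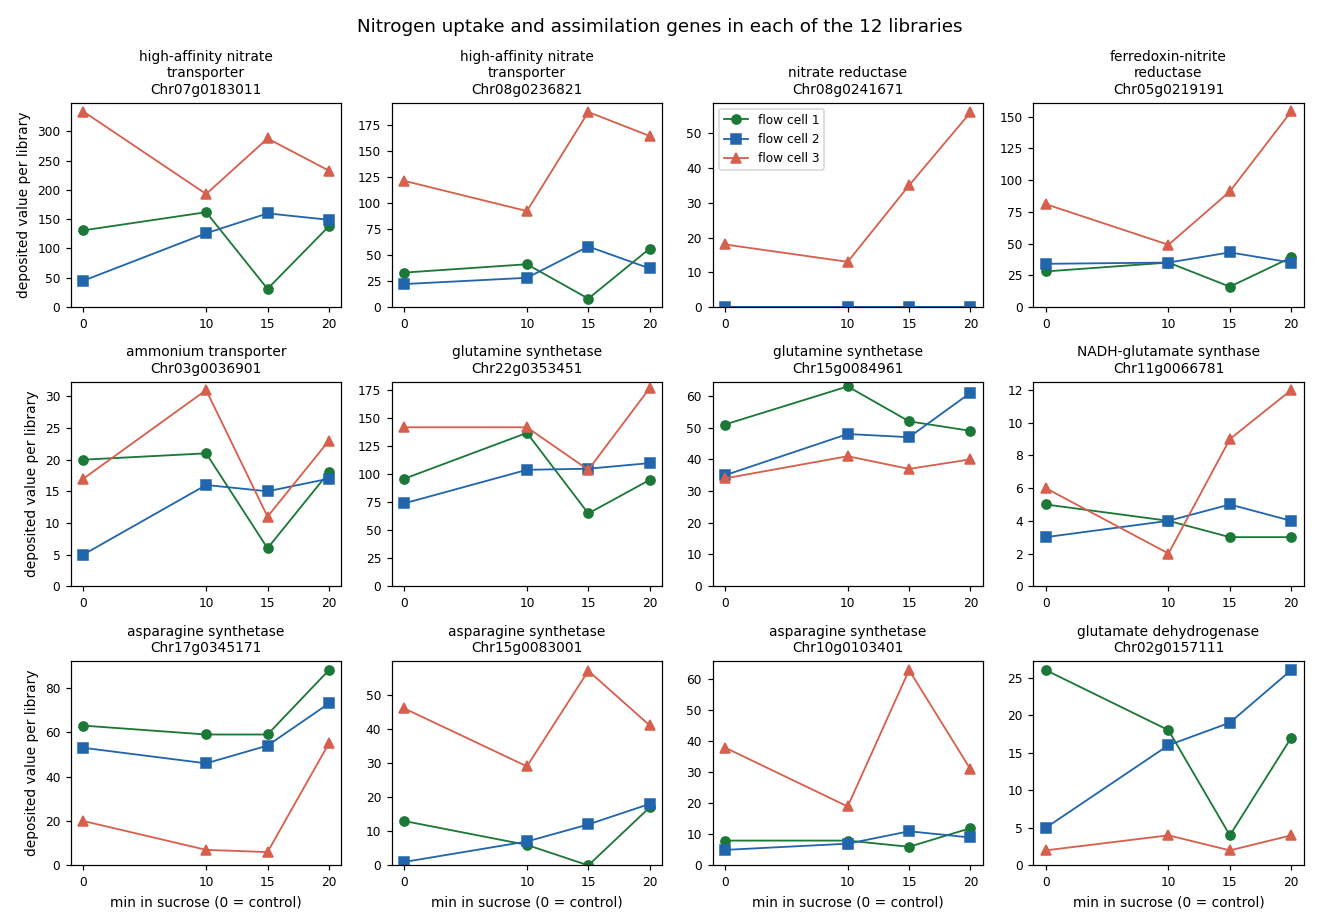
Deposited value (y axis, no unit, each panel with its own scale from 0) of 12 nitrogen genes against minutes in 10 mM sucrose (x axis, 0 is the control), with 1 line for each flow cell and 1 library per point. Both high-affinity nitrate transporters, nitrate reductase and nitrite reductase were highest in flow cell 3 at every time, and in the nitrate reductase panel the line of flow cell 1 lies under that of flow cell 2 at 0.

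Nitrate uptake was represented first by 2 genes named high-affinity nitrate transporter, which the GO terms place in the plasma membrane. The files do not say whether each is the transporter itself or the small partner protein that such transporters need. Lalb_Chr07g0183011 (CNRS_Lalb_1.0, chromosome 7, 3151210 to 3152527) had values of 131, 45 and 334 in the control libraries of flow cells 1, 2 and 3, then 162, 126 and 193 after 10 min, 31, 160 and 288 after 15 min, and 138, 149 and 233 after 20 min. Its control libraries alone spanned the range of all 9 sucrose libraries except the lowest, and the group means of 170.0 ± 148 (SD, n = 3) in the control and 173.3 ± 52.0 (SD, n = 3) after 20 min differed by far less than this spread. The log2 FC of sucrose against control was 0.20, with a 95% interval of -1.24 to 1.63.

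Lalb_Chr08g0236821 (chromosome 8, 10176532 to 10178780) was likewise highest in flow cell 3 in every group. The libraries read 33, 22 and 121 in the control, 41, 28 and 92 after 10 min, 8, 58 and 187 after 15 min, and 56, 37 and 164 after 20 min. All 4 libraries of flow cell 3 (92 to 187) lay above the 8 others (8 to 58), and the log2 FC between them was 2.10 ± 0.47 (SE), with a limma adjusted p-value of 0.0146. For Lalb_Chr07g0183011 the 4 libraries of flow cell 3 (193 to 334) were also all above the 8 others (31 to 162), but the log2 FC of 1.31 ± 0.50 (SE) stayed under 1.5 and its limma adjusted p-value was 0.0993. The log2 FC of Lalb_Chr08g0236821 with sucrose was 0.25, with a 95% interval of -1.56 to 2.05. Relative to the library total, both genes together took 7.27 to 12.5 per 10000 in flow cell 3 and 1.99 to 7.31 in the other libraries, so their ranges overlapped slightly once the totals were taken into account.

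**Figure D2:**
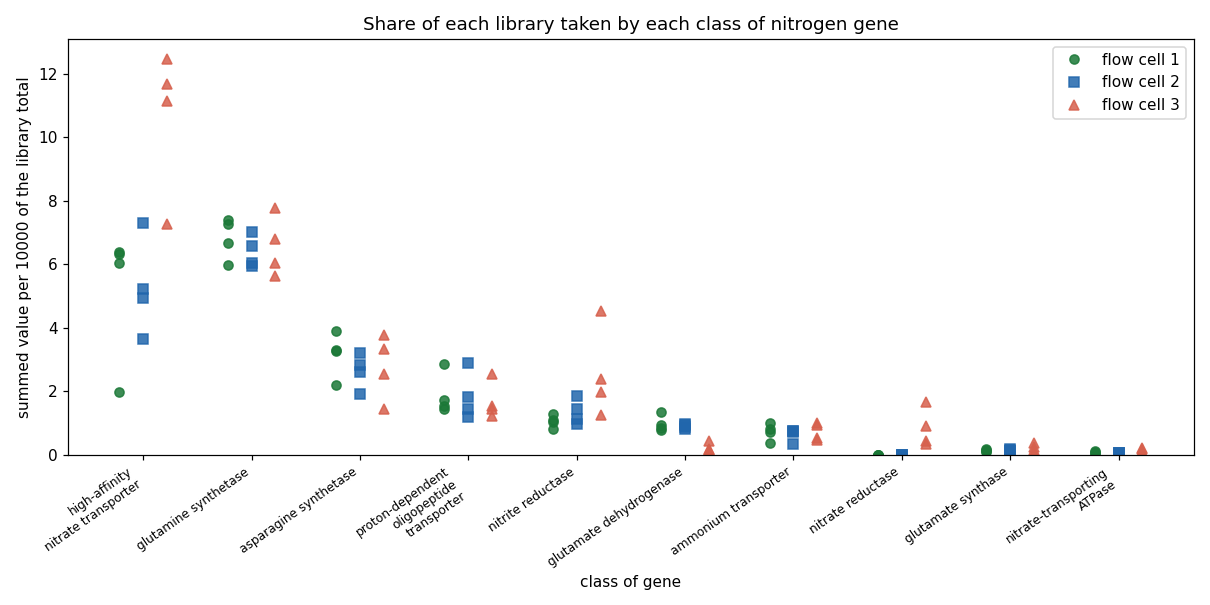
Summed value of each class of nitrogen gene per 10000 of the library total (y axis), with 1 point per library and the 3 flow cells side by side within a class (x axis). High-affinity nitrate transporters took 7.27 to 12.5 per 10000 in flow cell 3 and 1.99 to 7.31 in flow cells 1 and 2, whereas glutamine synthetases took 5.62 to 7.77 and 5.94 to 7.40. Classes are not compared with each other because the values are not corrected for gene length.

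The 26 proton-dependent oligopeptide transporters belong to the family that in Arabidopsis holds low-affinity nitrate transporters as well as carriers of peptides and hormones, and the names do not tell which cargo each one carries. They had low values. In 19 of the 26 no library reached 5, and 21 passed the filter. Lalb_Chr09g0323891 (chromosome 9, 2409878 to 2415357) had 10, 24 and 24 in the control, 15, 9 and 14 after 10 min, 17, 11 and 13 after 15 min, and 16, 9 and 2 after 20 min. The control and 20 min libraries overlapped, and the log2 FC after 20 min was -1.25 with an unadjusted limma p-value of 0.0531. In flow cell 1 all 3 sucrose libraries were above the control library, and in flow cells 2 and 3 all were below it. After scaling by the median of ratios its log2 FC after 20 min was -1.54, and without the control library of flow cell 1 it was -1.65, both past the thresholds.

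Of the same family, Lalb_Chr14g0365561 had 6, 4 and 10 in the control, 6, 3 and 9 after 10 min, 4, 6 and 11 after 15 min, and 7, 6 and 23 after 20 min, with all libraries of flow cell 3 above the others, although per 10000 of the total they overlapped (0.230 to 0.677 against 0.0964 to 0.231). Its log2 FC for flow cell 3 was 1.13 with a limma adjusted p-value of 0.0153. Lalb_Chr21g0319211 stayed between 3 and 13 in every library, with a log2 FC of 0.06 for sucrose against control.

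The 3 smallest p-values in the pooled sucrose comparison all belonged to oligopeptide transporters with values of at most 4. Lalb_Chr01g0013031 (chromosome 1, 13230933 to 13234687) was listed at 0 in the whole control group, but read 2, 1 and 0 after 10 min, 1, 1 and 1 after 15 min, and 1, 2 and 1 after 20 min. It was thus above 0 in 8 of 9 sucrose libraries. Its unadjusted limma p-value was 0.00814 and its adjusted p-value over all genes 1, and the exact permutation test (two-sided) gave 0.0182 over all 220 assignments of libraries and 0.0312 within flow cells. Because the controls are listed at 0 and the deposited values are rounded, no fold change is given.

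The other 2 of these transporters lie 11000 bases apart on chromosome 7, and reads of near-identical copies could have been divided between them. Lalb_Chr07g0188041 had 1, 0 and 2 in the control, 2, 2 and 4 after 10 min, 1, 3 and 3 after 15 min, and 2, 3 and 3 after 20 min, with a log2 FC of 0.92, an unadjusted limma p-value of 0.033 and an adjusted p-value of 1. Lalb_Chr07g0188031 was likewise listed at 0 in each control and had a value of 1 in 6 of 9 sucrose libraries. Its exact permutation p-value (two-sided) was 0.182. None of the 49 tested genes had all 9 sucrose libraries above the 3 controls, which 0.188% of all genes had, and none had all of them below, which 0.0261% had. Per library total 1 gene had all of them above (0.34% of all genes), Lalb_Chr07g0188041, and none had all of them below (0.209%). For Lalb_Chr07g0188041 this order rested on the unequal totals. Its 15 min library of flow cell 1, with a value of 1 and a total of 196413, ranked above the control of flow cell 3. That control had a value of 2 and a total of 407780.

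**Figure D3:**
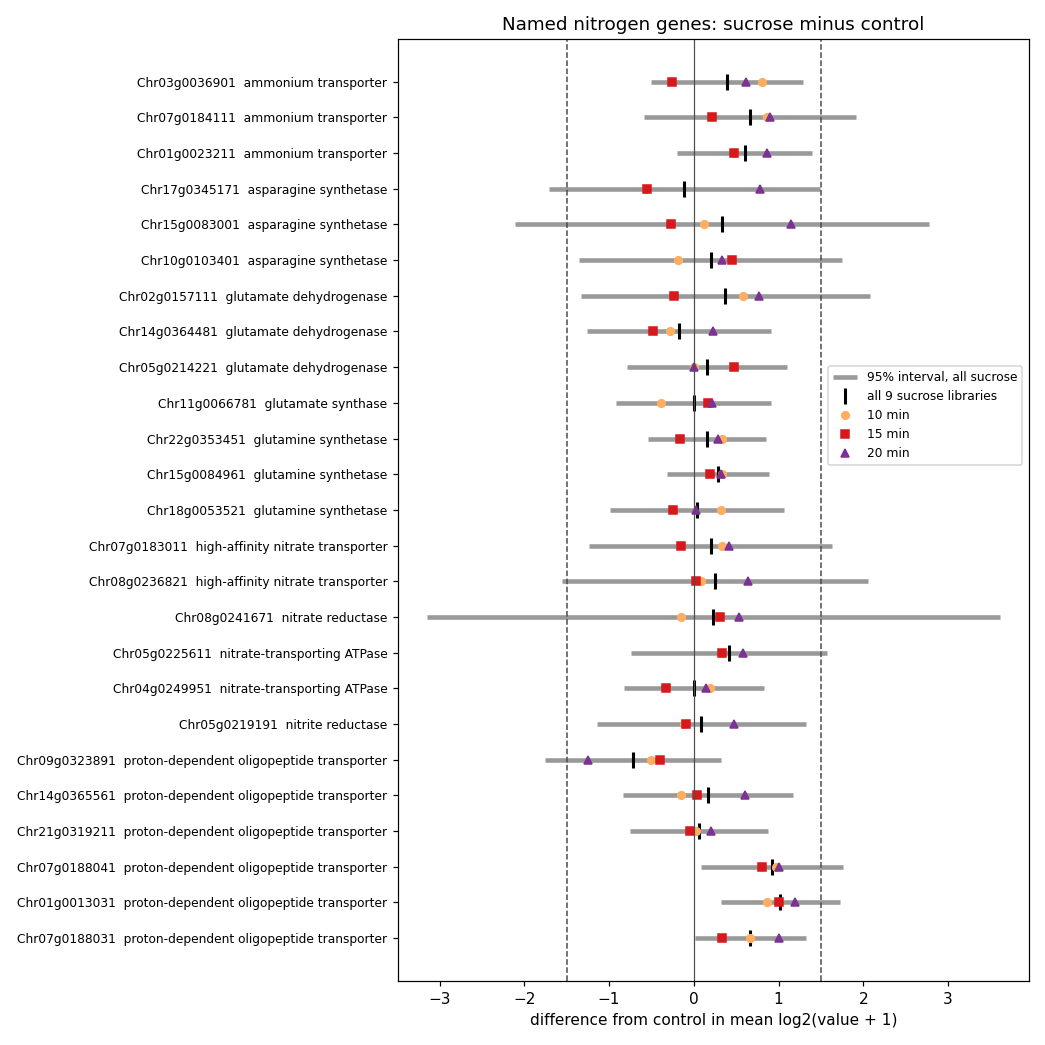
Difference from the control in mean log2(value + 1) (x axis) of the 25 named nitrogen genes (y axis) at 10, 15 and 20 min (coloured symbols) and over all 9 sucrose libraries (black tick, with its 95% interval from limma as a grey bar). Dashed lines mark 1.5 in size. No point of the 25 genes lay beyond them, and the interval of nitrate reductase was the widest, from -3.15 to 3.61. The fit held no flow cell term, so the intervals include differences between flow cells. Nitrate reductase was at 0 in every library outside flow cell 3.

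The 2 nitrate-transporting ATPases carry the same GO function term as the oligopeptide transporters. Lalb_Chr05g0225611 and Lalb_Chr04g0249951 had values of at most 5 in every library, and their log2 FC for sucrose against control was 0.42 and 0.00.

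Nitrate reductase, the first enzyme of nitrate reduction, was read in a single flow cell. Lalb_Chr08g0241671 (chromosome 8, 13908163 to 13913555) was listed at 0 in all 8 libraries of flow cells 1 and 2, and had 18 in the control, 13 after 10 min, 35 after 15 min and 56 after 20 min in flow cell 3. The difference in mean log2(value + 1) between flow cell 3 and the others was 4.76 ± 0.32 (SE), with a limma adjusted p-value of 2.2e-05. This size depends on the added 1, and the 8 zeros add no spread to the test, so no fold change is given. The gene passed the filter for testing through the libraries of flow cell 3 alone, so this p-value cannot serve as support. Within flow cell 3 the order of the 4 libraries was 10 min, control, 15 min and 20 min, with a single library for each.

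Nitrite reductase, which works next in the pathway, was read in all libraries. Lalb_Chr05g0219191 (chromosome 5, 4747743 to 4751536) had 28, 34 and 81 in the control, 35, 35 and 49 after 10 min, 16, 43 and 91 after 15 min, and 39, 35 and 154 after 20 min. All 4 libraries of flow cell 3 (49 to 154) were above the 8 others (16 to 43), with a log2 FC of 1.40 ± 0.32 (SE) and a limma adjusted p-value of 0.0145. Per 10000 of the total the ranges overlapped (1.25 to 4.53 against 0.815 to 1.85). The log2 FC of sucrose against control was 0.09, with a 95% interval of -1.15 to 1.32. In flow cell 3 both reductases had their highest value after 20 min, but in flow cells 1 and 2 nitrite reductase after 20 min (39 and 35) stood beside 28 and 34 in the control.

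Of the 4 ammonium transporters, membrane proteins that carry ammonium into root cells, Lalb_Chr03g0036901 (chromosome 3, 8002151 to 8004125) had 20, 5 and 17 in the control, 21, 16 and 31 after 10 min, 6, 15 and 11 after 15 min, and 18, 17 and 23 after 20 min. Control and sucrose libraries overlapped, and the log2 FC was 0.39 with a 95% interval of -0.51 to 1.29 and an exact permutation p-value (two-sided) of 0.455. Flow cell 3 (11 to 31) overlapped the other libraries (5 to 21). Lalb_Chr07g0184111 had values of 0 to 6 and Lalb_Chr01g0023211 of 1 to 5, with a log2 FC for sucrose of 0.66 and 0.60, and Lalb_Chr19g0124341 had at most 1. No ammonium transporter had a p-value of at most 0.05 in any comparison.

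Glutamine synthetase, which binds ammonium into glutamine, was represented by 6 genes. Lalb_Chr22g0353451 (chromosome 22, 2266372 to 2270150) had 96, 74 and 142 in the control, 137, 104 and 142 after 10 min, 65, 105 and 104 after 15 min, and 95, 110 and 177 after 20 min. The group means were 104.0 ± 34.7 (SD, n = 3) in the control and 127.7 ± 20.6, 91.3 ± 22.8 and 127.3 ± 43.7 (SD, n = 3 each) after 10, 15 and 20 min, so that no group stood outside the spread of the control. The log2 FC of sucrose against control was 0.15, with a 95% interval of -0.55 to 0.85.

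Lalb_Chr15g0084961 (chromosome 15, 16224406 to 16229055) had values between 34 and 63. The libraries read 51, 35 and 34 in the control, 63, 48 and 41 after 10 min, 52, 47 and 37 after 15 min, and 49, 61 and 40 after 20 min. Within a flow cell, 8 of the 9 sucrose libraries were above their own control library, and the log2 FC was 0.28 with a 95% interval of -0.32 to 0.88 and an exact permutation p-value (two-sided, within flow cells) of 0.0625. The difference was thus not larger than the spread between libraries. Per 10000 of the total the count was 4 of 9, the gene ranged from 0.834 to 2.65, and all 4 libraries of flow cell 3 (0.834 to 1.18) lay below the 8 others (1.54 to 2.65). Lalb_Chr18g0053521 had 41, 20 and 60 in the control and 12 to 69 with sucrose, with a log2 FC of 0.04.

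2 glutamine synthetase genes of lower value were tied to flow cell 3. Lalb_Chr17g0346051 (chromosome 17, 13308345 to 13312028) was listed at 0 in all 8 libraries of flow cells 1 and 2 and had 6, 8, 8 and 3 in flow cell 3 at 0, 10, 15 and 20 min, the same pattern of zeros as nitrate reductase. Its difference in mean log2(value + 1) was 2.79 ± 0.25 (SE) with a limma adjusted p-value of 0.00011, a size that again depends on the added 1. Lalb_Chr17g0346051 too passed the filter through flow cell 3 alone, so its p-value cannot serve as support. Lalb_Chr21g0315161, named a putative glutamine synthetase and also annotated with hydrolase activity, had 2 to 6 in flow cell 3 and 0 or 1 elsewhere, with a log2 FC of 1.57 and a limma adjusted p-value of 0.003. It fell under 1.5 after both scalings. The 3 glutamine synthetases with the highest values did not pass the thresholds between flow cells, with log2 FC of 0.53, -0.39 and 0.80 for Lalb_Chr22g0353451, Lalb_Chr15g0084961 and Lalb_Chr18g0053521.

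The NADH-dependent glutamate synthase Lalb_Chr11g0066781, which completes the cycle with glutamine synthetase, had 5, 3 and 6 in the control, 4, 4 and 2 after 10 min, 3, 5 and 9 after 15 min, and 3, 4 and 12 after 20 min. Its log2 FC for sucrose against control was -0.00 with a 95% interval of -0.91 to 0.91.

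The 4 asparagine synthetase genes did not move together between flow cells. Lalb_Chr17g0345171 (chromosome 17, 12857697 to 12862382) was lower in flow cell 3, with 63, 53 and 20 in the control, 59, 46 and 7 after 10 min, 59, 54 and 6 after 15 min, and 88, 73 and 55 after 20 min. Its log2 FC for flow cell 3 was -1.95 ± 0.37 (SE) with a limma adjusted p-value of 0.00659. The 55 after 20 min in flow cell 3 lay within the range of the other flow cells (46 to 88), whereas the other 3 libraries of flow cell 3 (6 to 20) lay below it.

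By deposited value, in each of the 3 flow cells the 20 min library of Lalb_Chr17g0345171 was the highest of the 4. Per library total this held in flow cell 3 alone, while the 20 min library was still above the 10 min library in each flow cell. The log2 FC between 20 and 10 min was 1.34 with an unadjusted limma p-value of 0.16, and with the flow cell as a block the unadjusted p-value was 0.0221. It stayed under 1.5 in both fits. Over all sucrose libraries the log2 FC was -0.11, with a 95% interval of -1.71 to 1.49.

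Lalb_Chr15g0083001 (chromosome 15, 14460717 to 14465877) was higher in flow cell 3, with 13, 1 and 46 in the control, 6, 7 and 29 after 10 min, 0, 12 and 57 after 15 min, and 17, 18 and 41 after 20 min. Flow cell 3 (29 to 57) did not overlap the other libraries (0 to 18), and the log2 FC was 2.59 ± 0.74 (SE) with a limma adjusted p-value of 0.0378. Lalb_Chr10g0103401 (chromosome 10, 16965512 to 16972005) was also highest in flow cell 3 in every group, with 8, 5 and 38 in the control, 8, 7 and 19 after 10 min, 6, 11 and 63 after 15 min, and 12, 9 and 31 after 20 min. Its log2 FC was 1.98 ± 0.32 (SE) with a limma adjusted p-value of 0.00256. With sucrose the log2 FC of these genes was 0.33 and 0.20, and their 95% intervals reached from -2.10 to 2.77 and from -1.36 to 1.75. The last gene of the class, Lalb_Chr11g0075371, had at most 1 in every library.

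**Figure D4:**
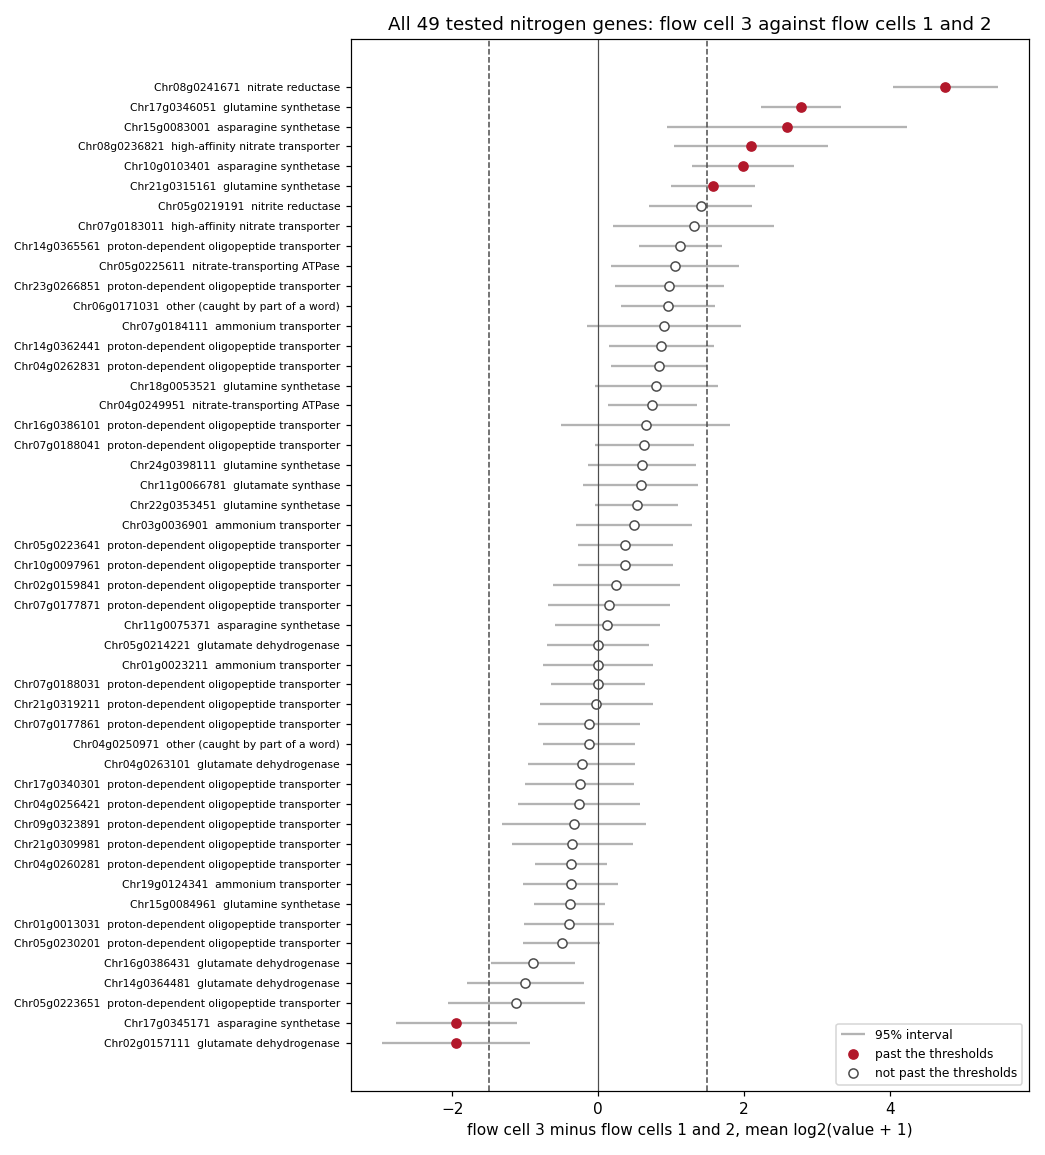
Difference in mean log2(value + 1) between the 4 libraries of flow cell 3 and the 8 of flow cells 1 and 2 (x axis, with 95% interval) for all 49 tested nitrogen genes (y axis). Filled points are the 8 genes past both thresholds, from nitrate reductase at 4.76 to glutamate dehydrogenase and asparagine synthetase at -1.95, and the comparison was added after the values had been seen.

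Glutamate dehydrogenase, a largely mitochondrial enzyme that can release ammonium from glutamate, had its highest gene on the other side. Lalb_Chr02g0157111 (chromosome 2, 15094823 to 15099805) had 26, 5 and 2 in the control, 18, 16 and 4 after 10 min, 4, 19 and 2 after 15 min, and 17, 26 and 4 after 20 min. The libraries of flow cell 3 (2 to 4) were at or below the lowest of the others (4 to 26), with a log2 FC of -1.95 ± 0.46 (SE) and a limma adjusted p-value of 0.0172. Its log2 FC with sucrose was 0.37, with a 95% interval of -1.33 to 2.07, and in flow cell 1 all 3 sucrose libraries were below the control whereas in flow cell 2 all were above it.

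Lalb_Chr14g0364481, of the same class, had 5, 8 and 1 in the control, 5, 4 and 1 after 10 min, 4, 3 and 1 after 15 min, and 4, 4 and 6 after 20 min, so that 3 of the 4 libraries of flow cell 3 were lowest and the 20 min library was not. The 95% interval of its log2 FC for flow cell 3 was -1.81 to -0.18, with a limma adjusted p-value of 0.0851. The glutamate dehydrogenases together took 0.147 to 0.442 per 10000 of the total in flow cell 3 and 0.764 to 1.35 in the others, with no overlap, and the list of 7 holds 5 tested genes. Lalb_Chr16g0386431, with values of 0 to 3, had a log2 FC of -0.90 and a limma adjusted p-value of 0.0403 between flow cells, and Lalb_Chr05g0214221, with 1 to 7, had a log2 FC of 0.00. Lalb_Chr09g0324161 and Lalb_Chr09g0329791 did not pass the filter.

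Counted over the 49 genes, 9 had all 4 libraries of flow cell 3 above the 8 others, where 7.86% of all genes did, and 0 had all of them below, where 1.94% did. The 9 were both high-affinity nitrate transporters, nitrate reductase, nitrite reductase, asparagine synthetases Lalb_Chr15g0083001 and Lalb_Chr10g0103401, glutamine synthetases Lalb_Chr17g0346051 and Lalb_Chr21g0315161, and the oligopeptide transporter Lalb_Chr14g0365561. Per library total 5 genes were all above (5.58% of all genes) and 2 all below (8.7%). The 5 were Lalb_Chr08g0236821, nitrate reductase, Lalb_Chr15g0083001, Lalb_Chr10g0103401 and Lalb_Chr17g0346051, and the 2 were the glutamate dehydrogenase Lalb_Chr02g0157111 and the glutamine synthetase Lalb_Chr15g0084961. The limma p-value was 0.05 or less for 20 of the 49 genes (31.6% of all genes), and the adjusted p-value for 12 (18.1% of all genes), with 9 higher (13.4% of all genes) and 3 lower (4.78% of all genes). The counts of higher genes include nitrate reductase and Lalb_Chr17g0346051, which passed the filter through flow cell 3 alone.

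Tested genes of neighbouring steps gave no call against the control either. Lists by protein name for asparaginase, aspartate and alanine aminotransferases, glutamate decarboxylase, chloride channels, urea and allantoin metabolism, phosphoenolpyruvate carboxylase, isocitrate dehydrogenase, the oxidative pentose phosphate enzymes, ferredoxin, amino acid transporters, molybdenum cofactor enzymes, carbonic anhydrase and NIN-like regulators held 161 genes, of which 126 were tested in limma. The 3 NIN-like genes did not pass the filter, so no call was possible for them. At 10, 15 and 20 min and over all sucrose libraries 0 of the 126 passed the thresholds, where 0.648%, 0.564%, 0.826% and 0.47% of all genes did. The unadjusted limma p-value alone was 0.05 or less for 2, 2, 4 and 4 of the 126. Of all genes 2.38%, 1.96%, 3.76% and 3.27% had such a p-value. Between 20 and 10 min 1 of the 126 passed (0.371% of all genes), a ferredoxin gene (Lalb_Chr02g0140611, log2 FC 1.53, unadjusted p-value 0.0273). Between flow cell 3 and the others 9 of the 126 were higher and 2 were lower, together 8.73% beside 9.02% of all genes, a share near the background. The 9 include Lalb_Chr19g0134821, Lalb_Chr24g0396131, Lalb_Chr10g0092571 and Lalb_Chr23g0269811. These passed the filter only through the libraries of flow cell 3, so their calls cannot serve as support.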

How the data were processed

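Per the methods of the study, the authors ran an Epi2me workflow in which Pychopper trimmed the Nanopore cDNA reads, Minimap2 aligned them with the genome CNRS_Lalb_1.0, StringTie built transcripts and Salmon quantified them. The deposited values carry the name CPM, are whole numbers and have unequal totals, so they were used as a score whose scale is not given in the sources used here. The strand used in counting is not given either. A second table of the authors, made with DESeq2 (mean signal, log2 fold changes, standard errors, test statistics and p-values against the control), was not used. Positions of all 56 genes are those of the reference annotation.

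A gene was tested if 3 or more libraries had a value of 1 or more (19138 genes). The tool limma 3.58.1 (R 4.3.3) was run on log2(value + 1) with a variance trend and 4 groups in 1 fit, and was tested on simulated data. A call needed a log2 FC of 1.5 or more in either direction with an unadjusted p-value up to 0.05, and adjusted p-values (Benjamini-Hochberg, over all genes) were read at 0.05. For 9 sucrose against 3 control libraries, two-sided exact permutation tests, not adjusted for the number of genes, ran over 220 assignments, or 64 within flow cells, with smallest possible p-values of 0.00455 and 0.0156. Python 3.11.15 was used for tables. P-values measure the spread between these libraries.

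Named genes were those past the thresholds or with separated groups, the 3 with the highest mean value in each class, and the 3 with the smallest p-value with sucrose (25 genes). Others were chosen after their values were seen. The genes and lists were chosen with earlier results of these data known. The replicate number pairs libraries, since the study ran every replication on a separate flow cell. After subtracting the mean of its time point from each gene, libraries of the same flow cell correlated at 0.284 (flow cell 1), 0.259 (flow cell 2) and 0.532 (flow cell 3) in the median. Alternatives covered the added constant, filters, 2 scalings, the flow cell as a block and leaving out libraries.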

Additional observations from a re-analysis of the deposited data

Results flagged for a closer look

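Only the 25 named genes were examined for opposed flow cells. In 5 of them every sucrose library of one flow cell lay on one side of its control library. Every sucrose library of another flow cell lay on the other side. The share of all genes with this pattern was not counted, so the 5 are not set apart from other genes. Each flow cell has a single control library, and the difference between flow cells was not tested. The values here are the mean difference in log2(value + 1) of the sucrose libraries from the control library, for flow cells 1, 2 and 3 in that order. The glutamate dehydrogenase Lalb_Chr02g0157111 had -1.17, 1.80 and 0.49, a gap of 2.98 between the highest and the lowest. The NADH-dependent glutamate synthase Lalb_Chr11g0066781 had -0.48, 0.41 and 0.06, a gap of 0.89. The high-affinity nitrate transporter Lalb_Chr07g0183011 had -0.56, 1.66 and -0.51, a gap of 2.21. The oligopeptide transporter Lalb_Chr09g0323891 had 0.63, -1.23 and -1.54, a gap of 2.17, and Lalb_Chr21g0319211 of the same family had -0.36, -0.52 and 1.07, a gap of 1.59. In flow cell 2 the control library had the lowest total of all 12, at 184071. Per library total the same opposition of flow cells held in 4 of the 5 genes, the exception being Lalb_Chr11g0066781. On that scale it also appeared in the ammonium transporters Lalb_Chr03g0036901 and Lalb_Chr07g0184111 and the glutamate dehydrogenase Lalb_Chr14g0364481. The glutamine synthetase Lalb_Chr15g0084961 and the nitrate-transporting ATPase Lalb_Chr04g0249951 showed it there too. In flow cell 2, however, Lalb_Chr04g0249951 had a deposited value of 1 in every library, so its difference there came from the totals alone. For Lalb_Chr15g0084961 every sucrose library of flow cell 2 was above the control by deposited value and below it per total.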

How the results depend on the processing

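The count of nitrogen genes past the thresholds with sucrose stayed between 0 and 2 in each direction under 23 alternatives. With 0.5 added in place of 1, it was 1 higher at 15 min, 2 at 20 min and 1 over all sucrose libraries, all oligopeptide transporters with values of at most 2. With either scaling, or the replicate block with median-of-ratios scaling, 1 was lower at 20 min (Lalb_Chr09g0323891, -1.54, -1.53 and -1.54). Of all genes 0.590% (median of ratios), 0.705% (median total) and 0.852% (block with median of ratios) passed at 20 min, in either direction. Leaving out 1 library gave 0 to 1 lower at 20 min (Lalb_Chr09g0323891, -1.80 without 20 min replicate 1), 0 to 1 higher at 20 min (Lalb_Chr24g0398111, without control replicate 3) and 0 to 1 higher between 20 and 10 min (Lalb_Chr05g0223651, Lalb_Chr04g0256421 or Lalb_Chr02g0159841, without 10 min replicate 1 or without the 20 min library of flow cell 1 or 2). Of all genes 1.40% passed at 20 min without 20 min replicate 1, and 1.69% without control replicate 3. Between 20 and 10 min the share was 0.540% without 10 min replicate 1, and 0.795% or 0.687% without the 20 min library of flow cell 1 or 2. For flow cell 3, leaving out 1 library gave 5 to 8 higher and 2 to 3 lower, beside 8.60% to 11.2% of all genes in either direction. With 5 added, 4 were higher and 1 was lower in flow cell 3 in place of 6 and 2, and with a mean value of at least 5 (17 genes tested) 4 were higher and 2 lower. With the replicate block alone the count was 0 in all 5 comparisons, and the block changed no call by the thresholds, although it raised the number with an unadjusted p-value of 0.05 or less from 1, 1, 2, 3 and 0 to 2, 2, 4, 3 and 3 of 49. Leaving out flow cell 3, or the 2 libraries with the lowest totals, both chosen after seeing the data, also gave 0. Without those 2 libraries flow cell 3 had 6 higher and 2 lower, beside 8.69% of all genes in either direction. Of 746 recomputed values of single genes, 731 kept their side of the thresholds, 9 lost a call, 6 gained one and 0 called values changed sign, while 76 uncalled values did. The glutamine synthetase Lalb_Chr21g0315161 lost its call in 7 of these. Values of a few units limit what can be seen in 27 of the 56 genes, and the cause of these differences was not tested. The share of all genes past the thresholds moved as well, from 0.141% (5 added) to 2.02% (without flow cell 3) after 10 min, from 0.0941% (5 added) to 1.48% (0.5 added) after 15 min, from 0.0784% (5 added) to 2.54% (without flow cell 3) after 20 min, and from 3.15% (5 added) to 15.1% (mean value of at least 5) for flow cell 3. Over all sucrose libraries it ran from 0.0993% (5 added) to 1.37% (without control replicate 3), and between 20 and 10 min from 0.0366% (5 added) to 1.34% (0.5 added).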

Other observations

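Across the 12 libraries, with values taken per library total, some pairs of nitrogen genes ranked libraries alike or in opposite order. The pairs given here were picked from the strongest, and no grouping of genes was run. Other pairs lay near 0, such as 0.007 for the asparagine synthetase Lalb_Chr17g0345171 with the glutamine synthetase Lalb_Chr22g0353451. Correlations over all genes were not taken. The libraries share 3 flow cells, and the correlations are descriptions over 12 points. The 2 high-affinity nitrate transporters had a Spearman rho of 0.909 with each other. Asparagine synthetases Lalb_Chr10g0103401 and Lalb_Chr15g0083001 had 0.895 and 0.867 with the transporter Lalb_Chr08g0236821, and nitrate reductase had 0.832 with it. Nitrate reductase was at 0 in every library outside flow cell 3, so those ranks are tied. The asparagine synthetase Lalb_Chr17g0345171 had 0.867 with the glutamine synthetase Lalb_Chr15g0084961, and the asparagine synthetase Lalb_Chr15g0083001 had -0.804 with that glutamine synthetase.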
